A study of Homo sapiens with 4 samples.

Results

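The interferon regulatory factors (IRFs) are a family of transcription factors named by the symbol IRF and a digit, and 8 of them were followed here among the 24424 gene symbols counted in every library. They were chosen by family name, with earlier results of these data known. The cells were BEAS-2B, a human cell line from bronchial epithelium that is labelled wild type in genotype, and RNA was sequenced in 4 libraries with 1 library a condition. Control cells were untreated, LPS cells received lipopolysaccharide for 2 hr, and the remaining cells received the WT or the mut PDZ peptide for 24 hr before 2 hr of LPS (the WT PDZ and mut PDZ libraries, drawn with +LPS in the plots). The WT PDZ peptide carries a stretch of the first PDZ domain of the tight junction protein ZO-1 behind a cell-penetrating Tat sequence, and the mut PDZ peptide differs by alanines in place of a pair of neighbouring glycines. No library held a peptide without LPS. The counts summed to between 19682929 in mut PDZ and 25155647 in LPS. With a single library behind each condition, differences could not be set against replicate spread, and p-values are not given. Bracketed intervals are 95% and cover counting error between libraries only.

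IRF proteins share a DNA-binding domain that recognises repeats of GAAA, found in the interferon-stimulated response element (ISRE) of antiviral and immune genes. IRF3 and IRF7 are switched on by phosphorylation when Toll-like or nucleic acid receptors signal, and they start interferon transcription. IRF9 is the DNA-binding partner of STAT2 in the response to type I and III interferons. IRF1 is made on demand after NF-kB or interferon signalling, while IRF2 competes with it for the same DNA elements. IRF5 acts downstream of MyD88, and IRF4 and IRF8 are known mainly from lymphoid and myeloid cells.

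The regulatory sequence is shown first for IRF1, the only one of the 8 genes called changed in LPS/Control, and for IRF9, which was not called, so that the letters can be set beside the counts. Both windows come from RefSeq on GRCh38.p14, which is not the build of the counts (hg19), and 5 of the 8 genes had a window in the RefSeq table used here. Capitals mark matches to the motifs searched on both strands, which were TTCNNNGAA (the GAS element of interferon-responsive genes), GAAA repeated after any 2 bases (the ISRE core) and the NF-kB consensus. The IRF1 window lies on the minus strand at chr5:132490724-132491023 and the IRF9 window on the plus strand at chr14:24161015-24161314, each with 250 bases before the annotated start and 50 from it.
IRF1: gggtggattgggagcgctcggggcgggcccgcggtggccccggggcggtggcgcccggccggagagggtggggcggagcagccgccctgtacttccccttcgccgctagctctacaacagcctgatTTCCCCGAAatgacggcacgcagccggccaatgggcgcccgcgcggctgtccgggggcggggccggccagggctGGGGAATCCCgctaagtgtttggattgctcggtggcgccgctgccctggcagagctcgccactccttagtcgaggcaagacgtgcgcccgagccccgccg
IRF9: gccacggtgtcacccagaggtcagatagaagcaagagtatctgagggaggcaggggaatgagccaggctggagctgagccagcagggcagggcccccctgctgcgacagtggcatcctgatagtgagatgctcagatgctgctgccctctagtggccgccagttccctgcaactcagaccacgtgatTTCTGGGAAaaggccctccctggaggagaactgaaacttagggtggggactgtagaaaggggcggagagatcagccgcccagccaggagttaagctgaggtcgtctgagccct
In the IRF1 window, the GAS letters stood at bases -124 to -116 and the NF-kB letters at -50 to -41, counted from the annotated start as base 0. IRF9 held GAS letters at -63 to -55 and no NF-kB match. Among all 35116 windows of the same length, 7.66% held TTCNNNGAA, 11.3% held the NF-kB consensus, and 0.122% held the very letters GGGGAATCCC of the IRF1 window, a string picked after the window had been read. The ISRE core was in 3.57% of windows and in none of the 9 windows of IRF1, IRF4, IRF5, IRF8 and IRF9. These matches describe letters and are not evidence of binding.

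Normalized counts are the counts divided by median-of-ratios size factors. The word called is used of genes that differed 2-fold or more and had 16 normalized counts or more in either library compared, and 6 of the 8 IRF genes reached that count. IRF4 and IRF8 did not. IRF4 had 0 counts in Control, 3 after LPS, 4 with WT PDZ and 0 with mut PDZ, so that it was at or next to the limit of 3 counts that a count of 0 allows. IRF8 had 1 count in Control, 8 after LPS, 7 with WT PDZ and 10 with mut PDZ. The difference between LPS and Control for IRF8 ran from 0.21 to 8.58 on the log2 scale, an interval too wide to give its size. These are the lymphoid and myeloid members. The leukocyte marker PTPRC (CD45), which all white blood cells carry, had 0 counts in the 4 libraries, and 2 of 16 leukocyte markers, CD14 and CD68, reached a mean of 16 normalized counts. All 8 epithelial markers reached that mean.

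**Figure D1:**
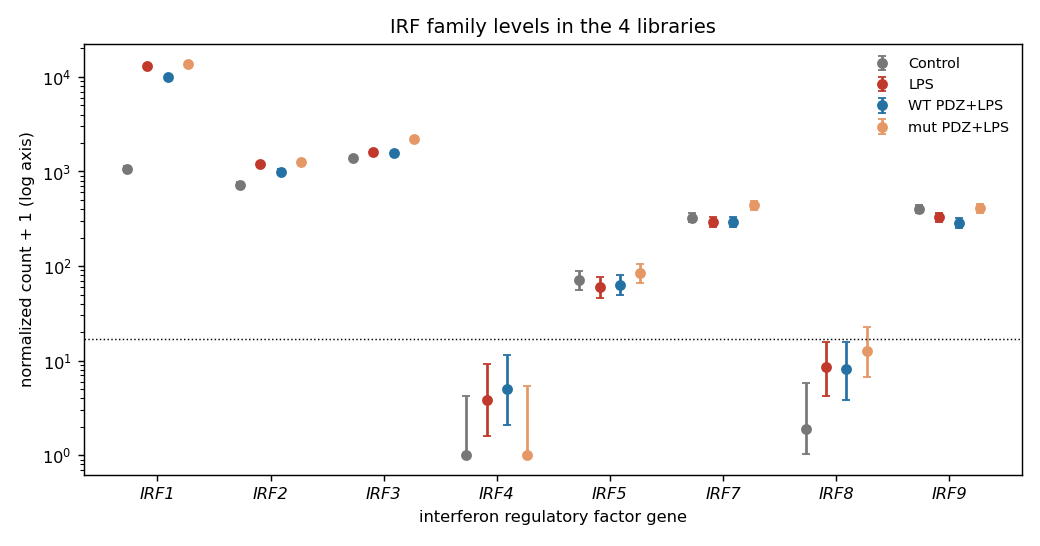
Normalized count plus 1 of each IRF gene on a log axis, with 1 point a library and 95% exact Poisson intervals of the count. IRF1 stands near 1069 in Control and between 9895 and 13572 in the 3 LPS-treated libraries, while IRF4 and IRF8 lie under the dotted line of the expression rule (16 normalized counts).

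Levels of different genes were compared per length, as CPM per kb, the counts scaled to the library total and divided by the length of the longest protein-coding transcript (GENCODE 29). In Control the order was IRF3 at 37.2, IRF2 at 14.3, IRF1 at 13.8, IRF9 at 10.1, IRF7 at 7.33 and IRF5 at 1.08, with IRF8 and IRF4 at 0.0133 and 0. Only IRF2 (13.4 to 15.3) and IRF1 (13.1 to 14.6) could not be told apart by their counting intervals among the 6 expressed genes. IRF3, the latent factor that needs no new synthesis to act, was thus the highest of the 8 described IRF transcripts in untreated cells on this scale. In LPS the order became IRF1 at 155, IRF3 at 39.3, IRF2 at 21.9, IRF9 at 7.50, IRF7 at 5.99 and IRF5 at 0.825. The peptide libraries had the same order, with IRF1 at 117 and IRF3 at 38.3 with WT PDZ and at 164 and 54.1 with mut PDZ, although the intervals of IRF9 and IRF7 overlapped in both. IRF1 made up 16.5% of the summed level per length of the 8 genes in Control, 67.2% in LPS, 62.5% in WT PDZ and 62.6% in mut PDZ. The ratio of IRF1 to IRF2 per length, activator to competitor, went from 0.965 in Control to 7.08 after LPS, 6.44 with WT PDZ and 6.99 with mut PDZ. These levels were not corrected for a trend over transcript length in the mut PDZ library, which is described below. The choice of transcript matters here. With the median length of each gene's protein-coding transcripts, IRF1 made up 27.2% in Control and 78.1% in LPS, and IRF2 at 87.6 stood above IRF3 at 68.9 in LPS.

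**Figure D2:**
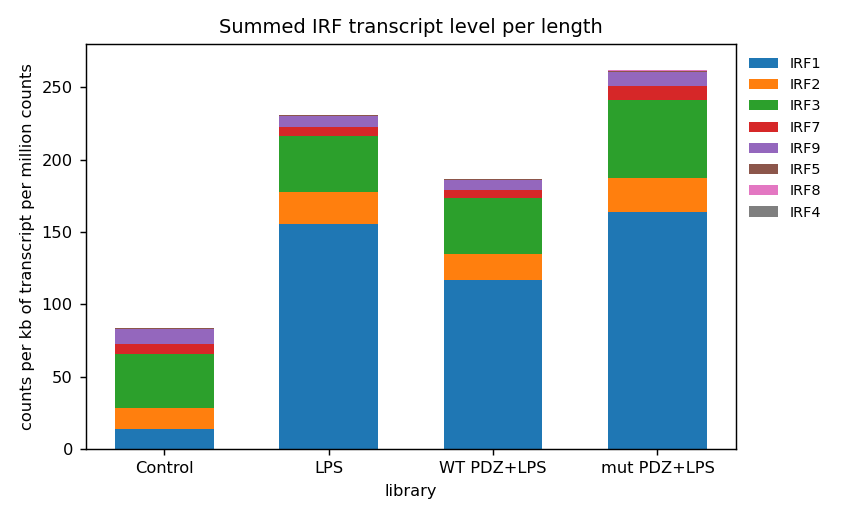
Stacked bars give the level per length of the 8 IRF genes in each library, in CPM per kb of transcript. The summed level is 83.9 in Control, 231 after LPS, 187 with WT PDZ and 262 with mut PDZ. IRF1 (blue) is the segment that grows most. The mut PDZ bar was not corrected for the trend over transcript length in that library.

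IRF1 had 1228 counts in Control, 13985 after LPS, 9799 with WT PDZ and 11551 with mut PDZ, or 1069, 13155, 9895 and 13572 normalized counts. All 3 LPS-treated libraries were far above Control, and WT PDZ was the lowest of them. In bulk RNA, more cells with the transcript and more transcript per cell cannot be told apart. In LPS/Control the log2 fold change was 3.62 (3.54 to 3.71), which is 12.3-fold. IRF1 ranked 55 from the highest among the 13277 genes tested. It was the single IRF gene called, 1 higher and 0 lower of 6 tested, where 3.46% of all genes tested were called higher, 1.41% lower and 4.87% in either direction. The same single gene was called in WT PDZ/Control, at 3.21 (3.13 to 3.30), and in mut PDZ/Control, at 3.67 (3.58 to 3.75), with no IRF gene called lower. Among all genes, 3.28% were higher, 1.42% lower and 4.7% called in total in the first, and 5.13%, 2.96% and 8.09% in the second. These comparisons share the Control library.

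Between the LPS-treated libraries no IRF gene was called. In WT PDZ/LPS 1.37% of all genes tested were called (0.635% higher, 0.733% lower). The share was 3.95% in mut PDZ/LPS (2.05% higher, 1.9% lower) and 4.26% between the peptides (2.12% higher, 2.14% lower with mut PDZ). IRF1 differed beyond counting error all the same. Its log2 fold change in WT PDZ/LPS was -0.41 (-0.45 to -0.37), or 24.8% fewer normalized counts, and it ranked 543 from the lowest of 13236 genes. In mut PDZ/LPS it was 0.045 (0.0093 to 0.081), near the middle of all genes at rank 5966 of 13378. Set against each other, the library of the mutant peptide was higher by 0.46 (0.42 to 0.49) than that of the wild-type peptide.

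IRF2, the competitor of IRF1, had 713 normalized counts in Control, 1196 after LPS, 989 with WT PDZ and 1250 with mut PDZ. It followed the order of IRF1 over the 4 libraries on a smaller scale. The log2 fold change was 0.75 (0.62 to 0.87) in LPS/Control and -0.27 (-0.40 to -0.15) in WT PDZ/LPS. In mut PDZ/LPS the difference of 0.064 was not detectable at this depth (-0.054 to 0.18).

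IRF3 had 1400 normalized counts in Control, 1620 after LPS, 1577 with WT PDZ and 2180 with mut PDZ. Its LPS/Control value was 0.21 (0.11 to 0.31), and its WT PDZ/LPS value of -0.038 was not detectable at this depth (-0.14 to 0.061). In mut PDZ/LPS it was 0.43 (0.33 to 0.52). The library of the mutant peptide was thus the highest for IRF3. IRF3 overlaps BCL2L12 on the opposite strand in GENCODE 29, and without a stated strand setting reads of the overlap cannot be assigned. BCL2L12 itself had 1100, 1161, 1182 and 1480 normalized counts in Control, LPS, WT PDZ and mut PDZ.

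IRF7, the interferon-inducible amplifier, had 325 normalized counts in Control, 291 after LPS, 292 with WT PDZ and 438 with mut PDZ. LPS/Control was -0.16 (-0.38 to 0.062) and WT PDZ/LPS was 0.0057 (-0.23 to 0.24), neither detectable at this depth, whereas mut PDZ/LPS was 0.59 (0.37 to 0.81). IRF9 had 400 normalized counts in Control, 326 after LPS, 285 with WT PDZ and 405 with mut PDZ. It was the one expressed member lower in LPS than in Control beyond counting error, at -0.29 (-0.50 to -0.090), and WT PDZ/Control gave -0.49 (-0.71 to -0.27). The WT PDZ/LPS difference of IRF9, -0.20, was not detectable at this depth (-0.43 to 0.034). IRF9 overlaps AL136295.5 on the same strand in GENCODE 29, where reads cannot be assigned even with strand known. IRF5 had 69.6 normalized counts in Control, 58.3 after LPS, 62.6 with WT PDZ and 83.4 with mut PDZ. At these counts the LPS/Control difference of -0.25 was not detectable (-0.76 to 0.24).

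**Figure D3:**
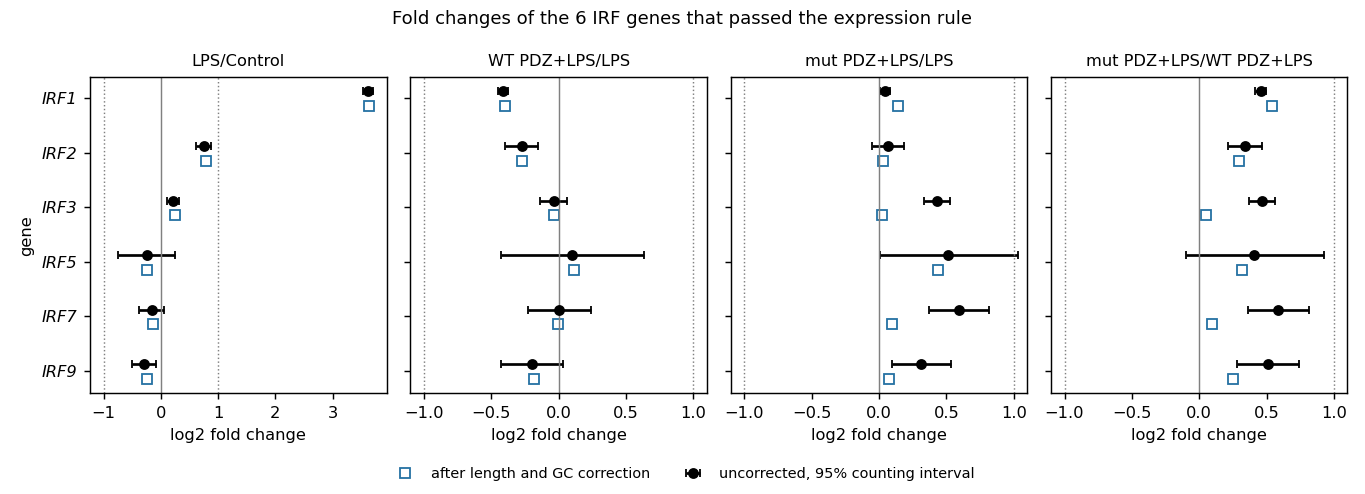
Log2 fold changes of the 6 IRF genes that passed the expression rule in 4 comparisons, as filled circles with 95% counting intervals and, as open squares, once the trend over transcript length and GC had been taken out. The dotted lines mark 2-fold. IRF1 stands at 3.62 in LPS/Control, and in mut PDZ/LPS the squares of IRF3, IRF7 and IRF9 fall to between 0.026 and 0.099.

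In the 6 expressed members the mutant peptide library was above the LPS library 6 of 6 times, with a median log2 fold change of 0.37 beside -0.017 for all genes tested. The mut PDZ library also differed from the others by transcript length. Across 11751 genes, which are not independent, the fold change correlated with length at a Spearman's rho of -0.603 in mut PDZ/LPS and at 0.0736 in WT PDZ/LPS. The longest coding transcripts of IRF3, IRF9 and IRF7 measure 1741, 1838 and 2051 nt, and that of IRF1 3579 nt. A lowess trend over length and GC content was then removed. After that, mut PDZ/LPS was 0.026 for IRF3, 0.099 for IRF7, 0.074 for IRF9, 0.030 for IRF2, 0.44 for IRF5 and 0.14 for IRF1. The value of IRF5 rests on 71 counts in mut PDZ and 62 in LPS, with an uncorrected interval of 0.0044 to 1.03. For IRF3, IRF7 and IRF9 most of the difference was removed with the trend over length and GC together. The parts of length and of GC were not separated, and the origin of the trend was not tested.

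**Figure D4:**
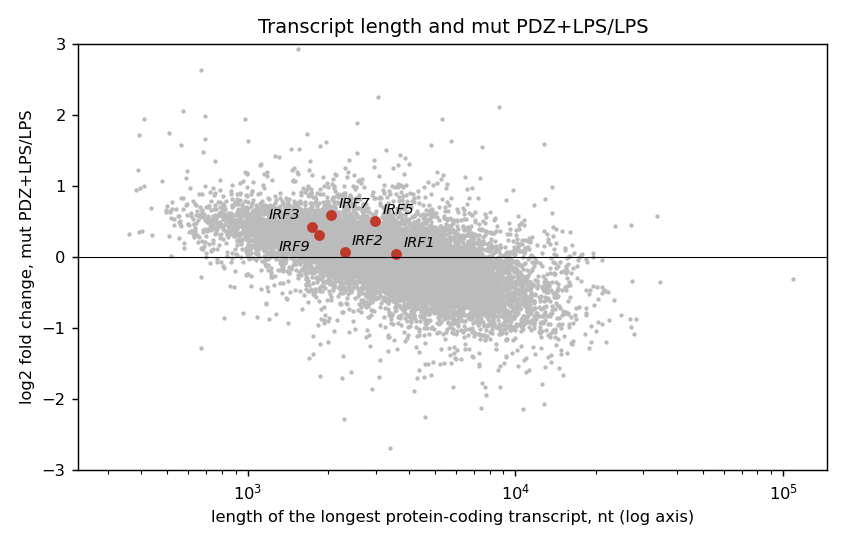
Each grey point is a gene whose mean reached 16 normalized counts, placed by the length of its longest protein-coding transcript (nt, log axis) and its log2 fold change in mut PDZ/LPS, with 6 of 11751 genes outside the axis. The IRF genes are red. IRF3 (1741 nt) stands at 0.43, IRF9 (1838 nt) at 0.31 and IRF7 (2051 nt) at 0.59. The longer IRF2 (2303 nt) stands at 0.064 and IRF5 (2988 nt) at 0.51.

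The peptides can be compared directly in mut PDZ/WT PDZ, at the same times of 24 hr and 2 hr. All 6 expressed IRF genes were higher with the mutant peptide, between 0.34 (0.21 to 0.47) for IRF2 and 0.59 (0.36 to 0.81) for IRF7. Of the 6 intervals, 5 lay above 0, and that of IRF5 did not (-0.098 to 0.93). The median of the 6 was 0.46, beside -0.014 for all genes tested. How many of all genes had an interval above 0 was not counted. With the length and GC trend removed, IRF3 fell to 0.052 and IRF7 to 0.093, whereas IRF1 was at 0.54, IRF5 at 0.32, IRF2 at 0.29 and IRF9 at 0.25. IRF1 had the largest corrected value of the 6, although the uncorrected interval of IRF5 was wide (-0.098 to 0.93). The correction placed each gene by its longest coding transcript, 3579 nt for IRF1, whose coding transcripts have a median of 858.5 nt. A correction by the median length was not run. In WT PDZ/LPS the correction left IRF1 at -0.40 and IRF2 at -0.27.

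The genes whose pattern lay nearest to each IRF gene were taken by Euclidean distance over the log2 differences from Control in the 3 LPS-treated libraries, among the 10859 genes whose mean reached 100 normalized counts. SERPINE2 (distance 0.30), ICAM1 (0.34) and AMIGO2 (0.38) were nearest to IRF1. ICAM1, an adhesion molecule for leukocytes, stood at 3.60, 3.27 and 3.33 in LPS, WT PDZ and mut PDZ against Control. CDH3 (0.082), LOC101926898 (0.093) and TRIM56 (0.11) were nearest to IRF2. For IRF3 these were MOB2, CCS and MAD1L1, for IRF7 LAMTOR2, AES and RPL37, and for IRF9 HDDC3, CALML4 and DPF1, at distances of 0.018 to 0.084. With 4 libraries such distances describe these libraries alone.

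Of the 34 receptors, adaptors and kinases listed upstream of the IRFs, 29 passed the expression rule in LPS/Control, with 6 higher and 0 lower, against 3.46% and 1.41% of all genes. The median log2 fold change of the 29 was 0.043, beside -0.0023 for all genes tested. TICAM2 (TRAM), which couples TLR4 to TRIF, had 0 counts in Control and 27 in LPS, so that it was higher by a factor of at least 9.73 with the 0 taken as 3 counts, and the lower 95% limit of the ratio itself was 7.38. IRAK2, a kinase of the MyD88 branch, was at 3.28 (3.02 to 3.57). IKBKE, which encodes a kinase that phosphorylates IRF3 and IRF7, had 458 counts in Control and 1292 in LPS and stood at 1.61 (1.45 to 1.77). DDX58 (RIG-I), a sensor of viral RNA, was 2.56-fold higher (2.32 to 2.84), and TRIM25 and TICAM1 (TRIF) were at 1.12 and 1.08. TBK1, the partner kinase of IKBKE, was at 0.21 (0.11 to 0.32), and TLR4 at 0.020, not detectable at this depth (-0.077 to 0.12). Between the LPS-treated libraries, 0 of the 29 were called in either peptide library against LPS, where the shares of all genes were 1.37% with WT PDZ and 3.95% with mut PDZ, and 1 (CHUK, lower) was called in mut PDZ/WT PDZ, beside 4.26%. With so few genes these counts lie near the shares of all genes.

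The interferon genes themselves were close to silent. Of 22 listed, 14 had 0 counts in the 4 libraries, and IFNB1, the classical IRF3 target, had 1 count in LPS and 0 in the other libraries. IFNE was the only one to pass the expression rule, with 53.1 normalized counts in Control, 80.9 after LPS, 66.6 with WT PDZ and 79.9 with mut PDZ. Its LPS/Control value was 0.60 (0.12 to 1.11). On the receiving side, 4 of 11 receptor and JAK-STAT genes were called higher and 0 lower in LPS/Control, beside 3.46% and 1.41% of all genes, with a median of 0.22 beside -0.0023. IFNAR2 lay close to the threshold, and 3 of the 11 were called under total-count or upper-quartile scaling. JAK2 was at 2.00 (1.89 to 2.13), IFNGR1 at 1.30 (1.22 to 1.39), IFNGR2 at 1.13 (1.04 to 1.22) and IFNAR2 at 1.04 (0.90 to 1.18). STAT2, the partner of IRF9, was at -0.12 (-0.23 to -0.018).

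Among 12 expressed partners and cofactors, 1 was called higher and 1 lower in LPS/Control, counts near the 3.46% and 1.41% of all genes. IRF2BP2, a corepressor that binds IRF2, had 2532 normalized counts in Control, 6814 after LPS, 5769 with WT PDZ and 6099 with mut PDZ. It was at 1.43 (1.37 to 1.49) in LPS/Control and -0.24 (-0.29 to -0.19) in WT PDZ/LPS. Its relatives IRF2BP1 and IRF2BPL were at -0.10 (-0.25 to 0.047) and 0.15 (0.055 to 0.25) in LPS/Control. BATF2, a partner of IRF1 in macrophages, went from 70 counts in Control to 19 after LPS, at -1.71 (-2.58 to -1.02).

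**Figure D5:**
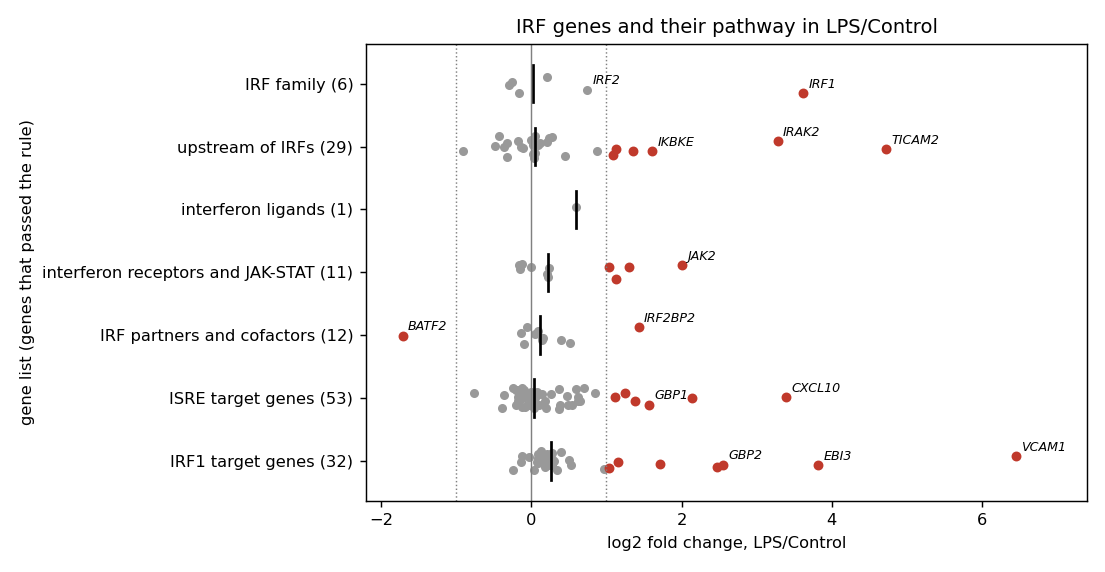
Log2 fold change in LPS/Control of the genes that passed the expression rule in the IRF family and 6 pathway lists, with called genes in red, other genes in grey and the median of each list as a black bar. IRF1 at 3.62 is the red point of the family, and most ISRE target genes lie near 0, with a median of 0.041.

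Of 53 ISRE target genes that passed the rule, 6 were called higher and 0 lower in LPS/Control, beside 3.46% and 1.41% of all genes, and the median of 0.041 was near that of all genes (-0.0023). CXCL10, a chemokine for T cells, had 3 counts in Control, 39 after LPS, 16 with WT PDZ and 23 with mut PDZ, a ratio of 14.1 in LPS/Control (4.47 to 71.1). The others were RTP4 at 2.14 (0.96 to 4.12), GBP1 at 1.56 (1.46 to 1.67), HELZ2 at 1.37 (1.29 to 1.46), GBP4 at 1.25 (0.88 to 1.65) and IFIT3 at 1.12 (0.98 to 1.25). Of the 32 IRF1 target genes, mostly of antigen presentation, 7 were higher and 0 lower, beside the same shares of all genes, with a median of 0.26. VCAM1, an adhesion molecule, had 1 count in Control, 172 after LPS, 106 with WT PDZ and 147 with mut PDZ. EBI3, a subunit of interleukins 27 and 35, had 5, 79, 27 and 45 counts in the same order. GBP2 and GBP3, which encode interferon-inducible GTPases, were at 2.55 (2.23 to 2.93) and 2.47 (2.30 to 2.65), although reads can be shared between genes of the GBP family. CD274 (PD-L1), TAPBP and IL12A were at 1.71, 1.15 and 1.03.

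Promoter stretches of 3 called genes are shown because they carry the letters that IRF proteins recognise. Capitals mark the ISRE core on either strand. From RefSeq on GRCh38.p14, the stretch of CXCL10 lies at chr4:76023694-76023733 (minus strand), that of GBP1 at chr1:89065311-89065350 (minus strand) and that of CD274 at chr9:5450319-5450364 (plus strand), with a pair of overlapping matches in CD274.
CXCL10: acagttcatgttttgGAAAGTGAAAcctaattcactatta
GBP1: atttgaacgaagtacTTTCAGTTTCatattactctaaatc
CD274: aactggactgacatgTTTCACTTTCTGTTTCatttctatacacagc
The motif was in a window of 5 of the 6 called ISRE target genes and of 28 of the 37 tested but uncalled ones that had a window. It was in 5 of the 6 called IRF1 target genes with a window and in 10 of 14 uncalled ones. Since the ISRE list was written for genes that carry this element, its presence there is no finding, and it did not separate called from uncalled genes in either list.

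The 6 and 7 target genes called in LPS/Control were followed between the peptides. They were picked partly for a high count in the LPS library, which by itself pulls ratios over that library down, so WT PDZ/LPS is a description, with 6 of 6 ISRE targets (median -0.45) and 6 of 7 IRF1 targets (median -0.34) below 0. In mut PDZ/LPS 4 of 6 (median -0.13) and 4 of 7 (median -0.053) were below 0. The comparison mut PDZ/WT PDZ uses neither library of the choice. In it, 6 of 6 ISRE targets (median 0.41) and 5 of 7 IRF1 targets (median 0.28) were above 0, and 3 and 4 of them had an interval above 0. Over the full lists the split was less uniform, with 34 ISRE targets above and 19 below 0 (median 0.13) and 25 IRF1 targets above and 9 below (median 0.22), beside a median of -0.014 for all genes. After the length and GC correction, the called genes above 0 were 5 of the 5 ISRE targets with a length and 6 of 7 IRF1 targets. Over the list genes with a length whose mean reached 16 normalized counts, the corrected median was 0.11 for ISRE targets. For IRF1 targets it was 0.085, beside 0.22 without the correction. Of the 5 called IRF1 targets above 0 before the correction, VCAM1 was at 0.69 (0.32 to 1.06) and GBP2 at 0.48 (0.25 to 0.71). EBI3 was at 0.93 (0.24 to 1.70), which the correction lowered to 0.43, and 2 of the 7 were below 0. Over the full lists in WT PDZ/LPS, 1 of 53 ISRE target genes was called lower (CXCL10, -1.14, -2.12 to -0.31) and 2 of 33 IRF1 target genes (EBI3, -1.41, -2.13 to -0.80, and IL7, -1.01, -2.18 to -0.038), where 0.733% of all genes were called lower.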

How the data were processed

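RNA of BEAS-2B cells was measured in 4 libraries, 1 per condition, made from poly(A)-selected RNA with a directional kit. After quality trimming and TopHat mapping (hg19, per the submitters' processing notes) the authors deposited whole-number counts for each symbol. The counting tool, annotation and strand setting are not given in the sources used here. Groups follow the treatment labels.

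Size factors (median of ratios) were 1.15, 1.06, 0.990 and 0.851 for Control, LPS, WT PDZ and mut PDZ (both with LPS). Log2 fold changes used a pseudocount of 1, and intervals of the ratio are 95% exact binomial (Clopper-Pearson). Levels of single libraries carry exact Poisson intervals. A count of 0 allows up to 3 counts. No molecular identifiers were counted, so reads may repeat a molecule and all intervals cover counting error only. A call needed a fold of at least 2 and 16 normalized counts (4 on the log2 scale) in one of the libraries compared. With 1 library a condition, no test was run.

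Transcript lengths came from GENCODE 29 (longest protein-coding transcript), with a value for 11751 of the 13072 genes whose mean reached 16 normalized counts. The length and GC correction removed lowess trends (span 0.3). The members, pathway lists and alternatives were chosen with earlier results of these data known. Named were every member, the list genes called in LPS/Control with the 4 highest and the 2 lowest values, list genes called between LPS-treated libraries, a fixed set of pathway genes, and the 3 genes nearest in pattern to each member whose mean reached 100 normalized counts. The other IRF1 target, partner and ISRE genes named were called in LPS/Control. One of the 9 family symbols and 1 of the fixed pathway genes are not reported here. The steps were tested on simulated data. Scripts ran in R 4.3.3 with edgeR 4.0.16 (TMM factors alone) and in Python 3.11.15 with statsmodels 0.14.6, scipy 1.17.1, pandas 2.3.3, matplotlib 3.10.9 and numpy 2.4.6.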

Additional observations from a re-analysis of the deposited data

How the results depend on the processing

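IRF1 kept its call and its direction against Control with a pseudocount of 5, scaling by TMM, upper quartile or total count, the length and GC correction, 64 normalized counts and folds of 1.5 and 3. Total-count scaling put the all-gene median of LPS/Control at -0.13. Without the expression rule the IRF genes called were 3 in LPS/Control, 3 in WT PDZ/Control, 2 in mut PDZ/Control, and 1 each in mut PDZ/LPS and mut PDZ/WT PDZ, through IRF4 and IRF8 at counts of 10 or fewer, and 1 interferon ligand was called in LPS/Control. All genes called without the rule were 11.9%, 14.4%, 17.3%, 13.6% and 17% in these comparisons. A fold of 1.5 called 2 IRF genes in LPS/Control, 3 in mut PDZ/Control, 1 in mut PDZ/LPS and 1 in mut PDZ/WT PDZ, all higher. At that fold 6.71%, 11.6%, 7.89% and 8.4% of all genes were called higher. In LPS/Control it also called 1 interferon ligand (higher) and 13 ISRE target genes (12 higher, 1 lower), where 4.77% of all genes were lower. In LPS/Control a fold of 3 left 3 upstream genes, 1 receptor or JAK-STAT gene and 2 ISRE target genes, all higher, and 1 partner, lower. Of all genes, 1.83% were higher and 0.339% lower at that fold. A minimum of 64 normalized counts left 1 partner, higher, where 2.87% of all genes were higher. In LPS/Control total-count scaling called 4 upstream genes higher and 1 lower, 3 receptor or JAK-STAT genes, 5 ISRE target genes and 6 IRF1 target genes. The genes of the last 3 lists were all higher, beside 2.91% higher and 2.06% lower of all genes. Upper-quartile scaling called 3 receptor or JAK-STAT genes and 6 IRF1 target genes, a pseudocount of 5 called 6 IRF1 target genes, and the correction 5 ISRE target genes. All of these were higher, where 3.19%, 3.18% and 3.22% of all genes were called higher at these settings in turn. The length and GC correction moved 11 of 36 log2 fold changes of IRF genes outside their counting interval. It turned IRF7 in mut PDZ/Control from 0.43 to -0.035 and IRF9 from 0.018 to -0.17 (-0.080 under total-count scaling). Total-count scaling moved 7 values outside their interval and upper-quartile scaling 2. Under total-count scaling IRF3 in LPS/Control went from 0.21 to 0.079. Under upper-quartile scaling IRF1 in mut PDZ/LPS went from 0.045 to 0.11. IRF7 in WT PDZ/LPS went from 0.0057 to -0.0032 under TMM and to -0.0045 under the correction. The median transcript length, chosen after seeing the data, gave IRF1 75.0% and 75.5% of the summed level in WT PDZ and mut PDZ. No paired analysis was possible because each condition had 1 library. Depth limits IRF4, IRF5 and IRF8 most.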

Other observations

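Among genes of the IRF pathway, a few were called in mut PDZ. In mut PDZ/LPS these were 2 of 12 partners (higher) and 1 of 53 ISRE targets (lower), beside 3.95% of all genes. In mut PDZ/WT PDZ they were 1 of 29 upstream genes (lower), 1 of 12 partners, 1 of 53 ISRE targets and 1 of 34 IRF1 targets (higher). The share of all genes there was 4.26%. Counts this small describe single genes and not the pathway. BATF3, a transcription factor that pairs with IRF4 and IRF8 in immune cells, had 19 counts in LPS, 9 in WT PDZ and 36 in mut PDZ, at 1.20 (0.40 to 2.13) in mut PDZ/LPS and 2.10 (1.14 to 3.46) in mut PDZ/WT PDZ. BATF2 was at 1.16 (0.36 to 2.09) in mut PDZ/LPS, with 19 counts in LPS and 35 in mut PDZ. After the length and GC correction, BATF3 and BATF2 in mut PDZ/LPS were at 0.56 and 0.92. CHUK, a kinase of the IKK complex, was at -1.09 (-1.23 to -0.96) in mut PDZ/WT PDZ, or -0.93 after the correction. ADAR, an interferon-inducible RNA-editing enzyme, had 10811 counts in LPS and 4293 in mut PDZ, at -1.01 (-1.06 to -0.96), or -0.62 after the correction. IL7 was at 1.37 (0.42 to 2.55) and GBP5 at 1.02 (-0.049 to 2.29) in mut PDZ/WT PDZ. Corrected values of IL7, GBP5 and BATF3 are not given for that comparison, where fold change correlated with transcript length at a rho of -0.612.

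C5orf56, which overlaps IRF1 on the opposite strand in GENCODE 29, had 60.9 normalized counts in Control, 54.6 after LPS, 58.6 with WT PDZ and 78.7 with mut PDZ. It did not follow the rise of IRF1 in LPS/Control. The summed normalized counts of the 16 leukocyte markers were 762, 754, 741 and 907 in Control, LPS, WT PDZ and mut PDZ, and those of the 8 epithelial markers 80456, 80547, 75617 and 107390, so that both sums were highest with mut PDZ. These sums were not corrected for the trend over transcript length in the mut PDZ library (rho of -0.603 in mut PDZ/LPS).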
